A study of Homo sapiens with 4 samples.

Results

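The genes examined here encode the machinery that transcribes the histone genes of S phase and forms the ends of their messenger RNAs. They are SLBP, NPAT, CASP8AP2, HINFP, LSM10, LSM11, ZNF473, CPSF2, SYMPK and ERI1, chosen by name for their known roles. All 10 were found by symbol among the 63677 genes of the count files, and all 10 passed the low-count filter that left 19142 genes for testing. RNA was sequenced from H929, an established human multiple myeloma cell line, after transduction with a non-silencing short hairpin RNA (shRNA; 2 libraries) or with an shRNA against ILF2 (2 libraries). ILF2 encodes a partner of complexes that bind double-stranded RNA. Both groups carry a hairpin, and effects of hairpins against ILF2 on other targets cannot be told apart from loss of ILF2. No source used here states that 1 hairpin was used for both of the ILF2 libraries, so their spread may hold a difference between hairpins. The libraries were made from total RNA depleted of ribosomal RNA, which keeps transcripts that have no poly(A) tail. The replicates are called independent by the submitters. The sources used here do not say if each had its own transduction, so p-values reflect the spread among these 4 libraries alone, which may be technical.

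Histone messenger RNAs of S phase are the only animal messenger RNAs known to end without a poly(A) tail. They end instead in a short stem-loop, which is bound by SLBP, and the U7 small nuclear ribonucleoprotein pairs with a purine-rich element just downstream. NPAT and HINFP act on transcription, LSM10, LSM11 and ZNF473 belong to or bind the U7 particle, CASP8AP2 (the protein FLASH) joins that particle to the cleavage factors, CPSF2 and SYMPK belong to those factors, and ERI1 is an exonuclease that trims the stem-loop and takes part in decay of the mature message.

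The RNA elements that this machinery reads are shown first, because they define its substrates. A 16-base stem-loop (a stem of 6 base pairs and a loop of 4 bases) was found in the GRCh37 genome for all 55 of the replication-dependent histone genes located on its main chromosomes, within the gene or up to 100 bases past its annotated end. It had 9 distinct spellings, and the commonest was shared by 34 genes. Examples of the commonest form, of a form whose loop ends in A and of the H4 form are given 5′ to 3′ on the coding strand, with the stem-loop in capitals and 5 flanking bases on each side. They stand at chr6:26021160-26021175 (plus strand), chr6:27114145-27114160 (minus strand) and chr6:26104545-26104560 (plus strand), near the 3′ end of the message.
H3C1: gcaaaGGCTCTTTTCAGAGCCaccac
H2BC12: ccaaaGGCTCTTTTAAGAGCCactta
H4C3: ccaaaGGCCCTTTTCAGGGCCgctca
The U7 RNA itself is encoded by RNU7-1 (GRCh37 chr12:7052979-7053041, plus strand, 63 bases). Its gene sequence is shown with the site bound by the ring of Sm and LSM proteins, bases 21 to 31, in capitals.
RNU7-1: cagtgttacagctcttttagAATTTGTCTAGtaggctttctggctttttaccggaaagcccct
RNU7-1 had a count of 0 in all 4 libraries. A count of 0 allows up to 0.0405 to 0.0471 CPM (counts per 1000000 counted fragments) in a library, from 3 counts and for counting error only. The RNA component of the particle therefore gave no value, and only the messages for its proteins can be described.

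Fragments counted were 72977082 and 71389341 in the controls and 63459322 and 71359863 after ILF2 shRNA. The targeted gene, ILF2, stood at 717 and 733 CPM in the non-silencing libraries and at 107 and 114 CPM after ILF2 shRNA, so its message fell as the labels state (log2 fold change -2.71, SE 0.07; edgeR adjusted p = 9.2e-39). Of the plasma cell markers SDC1, TNFRSF17, IRF4, PRDM1, XBP1, MZB1, JCHAIN, CD38 and SLAMF7, each had at least 113 CPM in every library, while the light chain gene IGKC had 0.204 to 0.270 CPM. Of these, JCHAIN (5594 and 5937 against 7682 and 7594 CPM) and MZB1 (587 and 551 against 770 and 815 CPM) were higher in both ILF2 shRNA libraries, as were TNFRSF17, IRF4, PRDM1 and CD38, while SDC1 and SLAMF7 were lower in both. Of 9 matched markers of other cell types, 8 had at most 0.432 CPM, and CD3D, a T cell gene, had at most 0.0270. The T cell gene CD3E was the exception, with 8.22 and 7.49 CPM in the controls and 16.1 and 17.0 with ILF2 shRNA. Mitochondrial genes took a share of 0.351% and 0.307% of the controls' fragments and of 0.516% and 0.463% of those from ILF2 shRNA libraries, so this share, CD3E and these plasma cell genes moved with the group, and their part in the results was not tested. The 5 most abundant genes took 12.3% of fragments in ILF2 shRNA replicate 2 and 10.2% to 10.5% in the other 3 libraries.

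SLBP was the most abundant of these genes per length of exon in both groups. Its level was 62.2 and 65.4 CPM per kb in the non-silencing libraries and 58.6 and 56.0 CPM per kb in the ILF2 shRNA libraries. CPSF2 followed, at 27.9 to 30.9 and 26.3 to 27.9 CPM per kb, and then LSM10, at 17.0 to 19.7 and 21.2 to 23.2 CPM per kb. NPAT, SYMPK, ERI1 and HINFP came next, with group means of 14.4, 10.8, 9.82 and 6.14 CPM per kb in the non-silencing libraries. CASP8AP2 and LSM11 had means of 5.35 and 4.33 CPM per kb there, and ZNF473 was the lowest at 1.67. In the non-silencing libraries the values of neighbours in this order did not overlap. With ILF2 shRNA, CASP8AP2 (4.31) and LSM11 (4.57) changed places and their libraries overlapped, and the order was otherwise the same. These levels use the annotated exon length, which holds exons of every isoform, and so they understate genes with long unused exons.

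**Figure D1:**
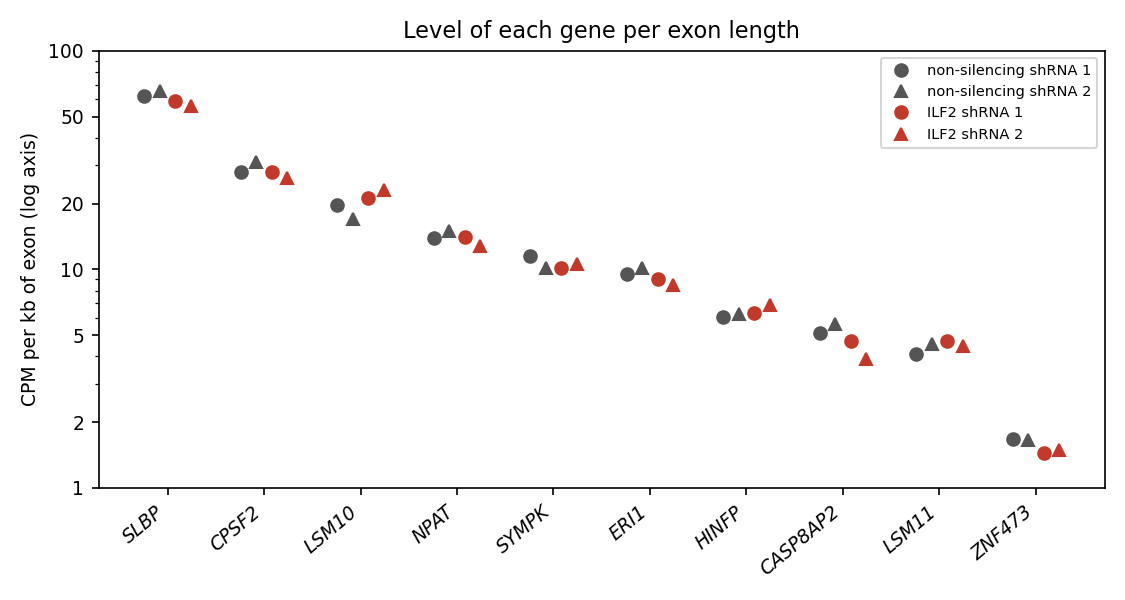
Level of each gene in CPM per kb of exon (log axis) in the 2 non-silencing (grey) and 2 ILF2 shRNA (red) libraries, circles for replicate 1 and triangles for replicate 2. SLBP lies highest at 56.0 to 65.4 and ZNF473 lowest, near 1.67 in the non-silencing libraries.

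Most of these genes did not pass the test when ILF2 was reduced. Of the 10, CASP8AP2 fell and LSM10 rose, and the other 8 were not called (edgeR's quasi-likelihood test, Benjamini-Hochberg adjusted p under 0.05). Called genes made up 20.3% of all tested genes, 10.1% lower and 10.2% higher, so 2 calls in 10 are no more than the share over the whole table. DESeq2 and limma-voom also called 1 lower and 1 higher. The median log2 fold change of the 10 genes was -0.11, with a range from -0.31 to 0.28, against a median of 0.00 over all tested genes (-0.0015 before rounding). The libraries of both groups lay apart in 7 of the 10, lower with ILF2 shRNA in 5 and higher in 2, where 56.5% of all tested genes lay apart. Without non-silencing replicate 2, and again without ILF2 shRNA replicate 2, 0 of the 10 were called in either direction.

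**Figure D2:**
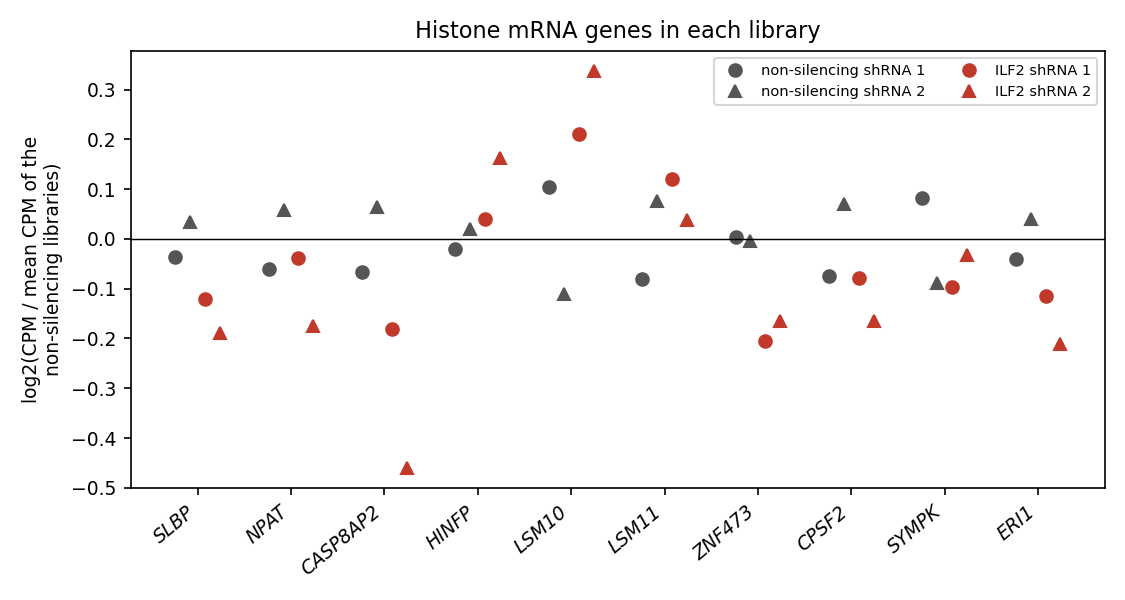
Each gene's CPM in each library relative to its mean in the non-silencing libraries (log2 axis), with non-silencing libraries in grey and ILF2 shRNA libraries in red. CASP8AP2 shows the lowest point, ILF2 shRNA replicate 2, and LSM10 the highest, in the same library.

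NPAT encodes the coactivator that cyclin E and CDK2 phosphorylate at histone gene clusters. It had 104 and 113 CPM in the non-silencing libraries against 106 and 96.4 CPM after ILF2 shRNA, and the groups overlapped. The log2 fold change was -0.10 (SE 0.07, with an edgeR adjusted p = 0.327). HINFP, a zinc finger protein that binds histone H4 gene promoters, had 59.6 and 61.3 against 62.1 and 67.6 CPM. Both ILF2 shRNA libraries lay above both non-silencing libraries, but the log2 fold change of 0.10 (SE 0.07) did not pass (edgeR adjusted p = 0.356).

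CASP8AP2 (ENSG00000118412), on GRCh37 chromosome 6 (90539613 to 90584155, plus strand), encodes FLASH, a protein of histone locus bodies needed for processing. It was the 1 gene of the set that fell. Its values were 48.8 and 53.4 CPM in the non-silencing libraries against 45.1 and 37.1 CPM after ILF2 shRNA, so both ILF2 shRNA libraries were lower and replicate 2 was lowest. The log2 fold change was -0.31 (SE 0.08, with an edgeR adjusted p = 0.0025), a fold of 0.804. The call ended without ILF2 shRNA replicate 2, in which the top 5 genes took the larger share (log2 fold change -0.18, adjusted p = 0.139) and without non-silencing replicate 2 (-0.25, adjusted p = 0.131).

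The promoters printed are those of the 2 called genes and of NPAT, which was not called and is set beside its neighbour ATM below. They come from RefSeq (GRCh38.p14), 250 bases before to 50 after the start, and 8 of the 10 genes were matched, without ERI1 and ZNF473. Capitals mark the CCAAT box and the E2F-type words TTTGGCGC, TTTCCCGC and TTTCGCGC, each searched on both strands, so that CCAAT may read ATTGG. They stand at chr6:89829630-89829929 (plus strand), chr1:36397859-36398158 (minus strand) and chr11:108222589-108222888 (minus strand).
CASP8AP2: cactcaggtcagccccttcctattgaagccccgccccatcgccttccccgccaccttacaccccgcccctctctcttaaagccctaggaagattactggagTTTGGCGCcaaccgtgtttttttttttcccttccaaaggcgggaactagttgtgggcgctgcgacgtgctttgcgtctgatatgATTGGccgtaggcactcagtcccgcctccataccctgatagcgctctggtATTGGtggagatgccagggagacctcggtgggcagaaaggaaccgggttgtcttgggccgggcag
LSM10: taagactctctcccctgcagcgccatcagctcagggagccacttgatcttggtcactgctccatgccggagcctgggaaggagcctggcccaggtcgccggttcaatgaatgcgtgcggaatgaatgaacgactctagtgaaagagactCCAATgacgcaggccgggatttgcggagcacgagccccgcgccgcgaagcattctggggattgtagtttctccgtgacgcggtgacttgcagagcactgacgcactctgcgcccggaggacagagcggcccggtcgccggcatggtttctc
NPAT: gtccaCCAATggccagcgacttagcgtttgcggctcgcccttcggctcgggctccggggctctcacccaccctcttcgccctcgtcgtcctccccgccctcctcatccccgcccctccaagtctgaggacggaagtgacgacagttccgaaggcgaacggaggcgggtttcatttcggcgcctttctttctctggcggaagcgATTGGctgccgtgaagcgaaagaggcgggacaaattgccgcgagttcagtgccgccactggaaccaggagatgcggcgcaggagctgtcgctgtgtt
CCAAT was found in 5 of the 8 promoters and in 34.6% of the 35116 promoters in the table. TTTGGCGC was found in that of CASP8AP2 alone among the 8, and in 0.652% of all promoters. TTTCCCGC and TTTCGCGC were in 0 of the 8, against 1.63% and 0.515% of all. A match is a word in this window and was not tested as a binding site.

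NPAT shares its start region with ATM, the DNA damage kinase gene, which is read in the opposite direction and whose annotated start lies 158 bases inside NPAT's. ATM had 308 and 333 CPM in the non-silencing libraries against 377 and 344 CPM after ILF2 shRNA, with both ILF2 shRNA libraries above both others. Its log2 fold change was 0.17 (SE 0.07, with an edgeR adjusted p = 0.0704), and it passed without ILF2 shRNA replicate 2 (0.23, adjusted p = 0.00878) and with GC and length corrected for (0.21, adjusted p = 2.6e-04). The number of ATM fragments per NPAT fragment, which does not depend on library scaling, was 2.96 and 2.94 in the non-silencing libraries against 3.56 and 3.57 after ILF2 shRNA. This ratio was 1.21-fold higher, and the difference was far larger than the spread between replicates (2.95 ± 0.00863 against 3.56 ± 0.00689; SD, n = 2). With 2 libraries a group the smallest two-sided exact permutation p is 0.333, which this ratio had (0.466 adjusted over the 7 ratios computed). The ratios were chosen after levels had been seen. Of the 7, SYMPK per CPSF2 overlapped between the groups (0.744 and 0.598 in the non-silencing libraries against 0.659 and 0.732). CASP8AP2 per SLBP was lower in both ILF2 shRNA libraries (0.387 and 0.403 against 0.379 and 0.327). Counting used strand, so the 143 exon bases that the genes share on opposite strands do not mix their fragments.

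Other genes that start within 1000 bases of these genes on the opposite strand were not called either. CPSF2 has NDUFB1 at 20 bases (log2 fold change 0.06, edgeR adjusted p = 0.660), ZNF473 has VRK3 at 232 bases (0.05, adjusted p = 0.774) and SLBP has the non-coding RNA gene RP11-572O17.1 at 266 bases (-0.46, adjusted p = 0.0912). SYMPK has FOXA3 at 699 bases, which was barely detected (24 to 39 fragments a library; 0.48, adjusted p = 0.321). VRK3 per ZNF473 fragment was 1.54 and 1.53 against 1.81 and 1.78, and NDUFB1 per CPSF2 fragment was 0.193 and 0.181 against 0.217 and 0.206. Both of these ratios, like that of ATM to NPAT, were higher in each ILF2 shRNA library than in each non-silencing library (exact permutation p = 0.333 each). No ratio was computed for the pairs of SLBP and SYMPK. The pair of SLBP went the other way, with the neighbour's log2 fold change below that of SLBP (-0.46 against -0.15). FOXA3 stood above SYMPK (0.48 against -0.06).

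LSM10 and LSM11 encode the proteins that replace the Sm proteins D1 and D2 in the ring of the U7 particle. LSM10 (ENSG00000181817, GRCh37 chromosome 1, 36856839 to 36863493, minus strand) was the 1 gene that rose. It had 29.5 and 25.4 CPM in the non-silencing libraries against 31.7 and 34.7 CPM after ILF2 shRNA, with no overlap. The log2 fold change was 0.28 (SE 0.08, with an edgeR adjusted p = 0.0095), a fold of 1.21. The call ended without non-silencing replicate 2, the library in which LSM10 was lowest (0.17, adjusted p = 0.391), and without ILF2 shRNA replicate 2, in which it was highest (0.21, adjusted p = 0.0963).

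LSM11, whose long amino-terminal part contacts FLASH, had 26.9 and 30.0 against 30.9 and 29.2 CPM, and the groups overlapped. Its log2 fold change was 0.08 (SE 0.08, with an edgeR adjusted p = 0.550). LSM11 lies on chromosome 5, and of the 900 genes tested there 267 rose and 30 fell by edgeR, around a median of 0.15. Of all tested genes 10.2% rose and 10.1% fell, and other chromosomes were not tallied here. The number of LSM10 fragments per LSM11 fragment was 1.09 and 0.845 in the non-silencing libraries against 1.03 and 1.19 after ILF2 shRNA, which overlapped (exact permutation p = 0.667). ZNF473, the zinc finger protein ZFP100 that binds the U7 particle, had 11.5 CPM in both non-silencing libraries and 9.98 and 10.3 CPM with ILF2 shRNA. It was lower in both, but the log2 fold change of -0.18 (SE 0.09) did not pass (edgeR adjusted p = 0.167). With 636 to 855 fragments a library it is the least deeply counted of the set.

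CPSF2 and SYMPK belong to the histone cleavage complex, CPSF2 as the inactive partner of the nuclease CPSF3 and SYMPK as the scaffold symplekin. CPSF2 had 164 and 181 CPM in the non-silencing libraries against 163 and 154 CPM after ILF2 shRNA. The groups were separated by less than 1 CPM, and the log2 fold change was -0.12 (SE 0.07, with an edgeR adjusted p = 0.229). SYMPK had 122 and 108 against 108 and 113 CPM, with overlap and a log2 fold change of -0.06 (SE 0.07, with an edgeR adjusted p = 0.587). Without non-silencing replicate 1 its direction turned (0.023, adjusted p = 0.936). CPSF3, the nuclease itself and not a gene of the set, had 96.8 and 104 against 84.6 and 80.9 CPM. It fell by 0.28 on the log2 scale (SE 0.07, with an edgeR adjusted p = 0.0019). With non-silencing replicate 2 left out it was no longer called (-0.23, adjusted p = 0.167). CPSF3 fragments per CPSF2 fragment were 0.591 and 0.576 in the non-silencing libraries and 0.518 and 0.526 with ILF2 shRNA (exact permutation p = 0.333, the smallest possible). CSTF2, whose protein CstF64 also joins this complex, had 41.2 ± 0.0894 against 36.3 ± 1.82 CPM (SD, n = 2; -0.18, edgeR adjusted p = 0.0782, or 0.0450 without ILF2 shRNA replicate 2).

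SLBP is made and destroyed with each S phase and accompanies the histone message to translation. It had 126 and 132 CPM in the non-silencing libraries against 119 and 113 CPM after ILF2 shRNA, lower in both with no overlap. The log2 fold change was -0.15 (SE 0.07; edgeR unadjusted p = 0.0272, adjusted p = 0.104). ERI1 had 60.9 and 64.4 against 57.9 and 54.1 CPM, again lower without overlap. Its log2 fold change was -0.16 (SE 0.07, with an edgeR adjusted p = 0.106). Neither passed over all genes.

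The 95% intervals of the fits reflect the spread among these 4 libraries alone, with dispersion in part shared across genes. Because that spread may be technical, they do not bound the change that loss of ILF2 could bring. All 10 intervals lay between -0.5 and 0.5 on the log2 scale. SLBP's ran from -0.29 to -0.02, ERI1's from -0.31 to -0.02, NPAT's from -0.25 to 0.04, CPSF2's from -0.26 to 0.02 and HINFP's from -0.04 to 0.25. In 9 of the 10 the interval lay above -0.42, the median log2 fold change of the replication-dependent histone genes. CASP8AP2 was the exception, with an interval from -0.47 to -0.16. Whether any gene differed from the histone genes was not tested. When GC content and exon length were corrected for, an alternative chosen after seeing the data, 5 of the 10 were called lower and 1 higher, while 30.6% of all tested genes were called. The 4 added were SLBP (-0.18, edgeR adjusted p = 0.0017), ERI1 (-0.16, adjusted p = 0.0046), CPSF2 (-0.12, adjusted p = 0.0283) and ZNF473 (-0.20, adjusted p = 0.0337). The log2 fold changes themselves barely moved.

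**Figure D3:**
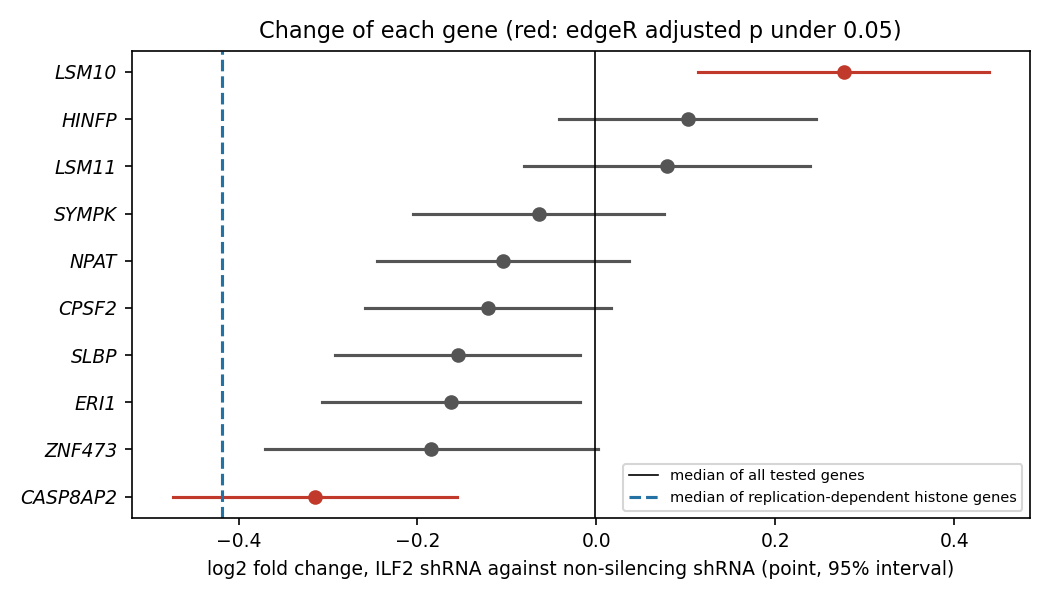
Log2 fold change of each gene with its 95% interval, in red where the edgeR adjusted p was under 0.05. The solid line is the median of all tested genes, near 0, and the dashed line is the median of the replication-dependent histone genes at -0.42, which only the interval of CASP8AP2 crosses.

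The messages that this machinery makes fell widely. Of 57 replication-dependent histone genes 49 were tested, of which 42 fell and 0 rose by edgeR. Of all tested genes 10.1% fell and 10.2% rose. The median of the 49 was -0.42 on the log2 scale. In these bulk samples fewer cells in S phase and less histone RNA per cell cannot be told apart. Fragments of the 49 genes made up 0.969% and 0.954% of the total in the controls and 0.666% and 0.712% in the ILF2 shRNA libraries. Summed, they came to 9550 and 9449 CPM against 6627 and 7345 CPM, a log2 ratio of the group means of -0.44. The summed histone CPM per SLBP CPM was 75.7 and 71.3 in the non-silencing libraries against 55.8 and 64.8 after ILF2 shRNA, a log2 ratio of the means of -0.29. Both libraries of the ILF2 shRNA group were lower on each of these measures. By the smallest adjusted p, H3C13 fell by 0.72, H3C1 by 0.72, H3C7 by 0.59 and H2BC18 by 0.57 on the log2 scale. Near-identical histone genes share fragments, so single values are uncertain, and the sum is less so only as far as fragments with several mapping places were treated alike in all libraries.

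**Figure D4:**
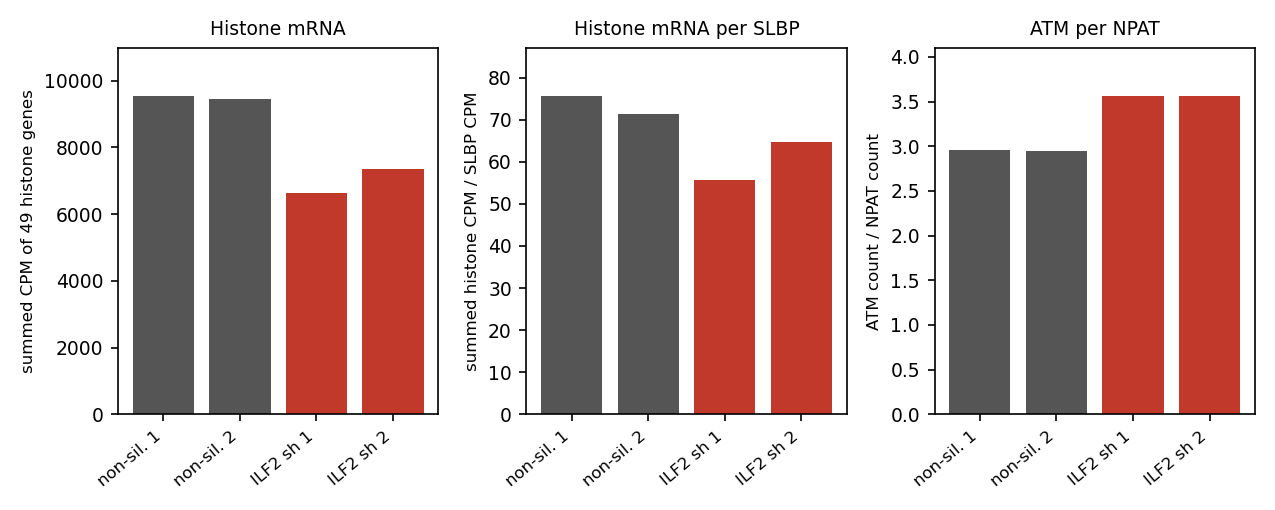
Bars give, for each of the 4 libraries, the summed CPM of 49 replication-dependent histone genes (left), that sum per CPM of SLBP (middle) and ATM fragments per NPAT fragment (right). The ILF2 shRNA libraries (red) are lower in the left and middle panels and higher in the right one, at 3.56 and 3.57.

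The replacement histone genes, most of whose messages are polyadenylated and do not need the U7 particle, fell in 6 of the 10 tested by edgeR and rose in 0, where 10.1% of all tested genes fell. The median of the 10 was -0.28, and H2AJ, H2AZ1, H3-3A and H3-3B were not called. MACROH2A1, which encodes a large variant of H2A, went from 223 ± 0.321 to 149 ± 2.83 CPM (SD, n = 2; log2 fold change -0.58, edgeR adjusted p = 6.1e-10). H2AX had a log2 fold change of -0.42, H2AZ2 one of -0.35 and the centromeric H3 gene CENPA one of -0.44. H3-3B, a gene for the replacement H3 made outside S phase, was not called (234 ± 2.84 against 209 ± 2.42 CPM; -0.16, adjusted p = 0.0764), nor was H2AZ1 (-0.13, adjusted p = 0.161). The last pair was chosen for naming after their values were seen. A difference between replacement and replication-dependent genes was not tested.

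Upstream of transcription, 7 of 14 genes for S-phase inputs to histone genes fell by edgeR, where 10.1% of all tested genes fell, and 0 rose. Their median was -0.19. E2F2 went from 358 ± 0.273 to 250 ± 12.7 CPM (SD, n = 2) and its log2 fold change was -0.52. E2F1 had one of -0.39, the cyclin gene CCNA2 -0.39 and CDK2, whose kinase acts on NPAT with cyclin E, -0.38 (edgeR adjusted p = 1.3e-05, 1.4e-05 and 9.1e-05). The cyclin E genes themselves, CCNE1 (-0.096, adjusted p = 0.425) and CCNE2 (-0.15, adjusted p = 0.208), were not called. Neither were NFYA, NFYB, NFYC, YY1 and GON4L of the same list. These uncalled genes were chosen for naming after their values were seen. Among genes for the turnover of SLBP, 3 of 10 fell and 0 rose (median -0.04, against the same 10.1% of all genes): CCNA2 again, CCNF, which encodes the cyclin F that targets SLBP (-0.32, adjusted p = 2.7e-04), and CDK1 (-0.25, adjusted p = 0.0103). The call of CDK1 ended when any library but ILF2 shRNA replicate 1 was left out, with adjusted p from 0.0663 to 0.213.

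The general factors that share this machinery moved little. The counts below stand beside 20.3% of all tested genes called, 10.1% lower and 10.2% higher. Among 19 cleavage and polyadenylation factors the groups lay apart in 13, where 56.5% of all tested genes lay apart. At an edgeR unadjusted p under 0.05, 4 of the 19 were lower and 1 higher. Of all 19142 tested genes, 30.9% passed at that level, 2953 lower and 2971 higher. That share stands beside every unadjusted count below. After adjustment CPSF3 alone of the 19 was called by edgeR, and the median was -0.05. Left-out libraries changed this count: 0 were lower without non-silencing replicate 2, CSTF2 was added without ILF2 shRNA replicate 2, and CPSF1 was called higher without ILF2 shRNA replicate 1. Of the 7 Sm proteins 0 were called, by edgeR, DESeq2 or limma-voom, and 2 were lower and 0 higher at an unadjusted p under 0.05. SNRPD3, which also sits in the U7 ring, had 108 ± 3.15 against 116 ± 3.97 CPM (SD, n = 2; log2 fold change 0.11, edgeR adjusted p = 0.309), and SNRPD2, replaced there by LSM11, had a log2 fold change of 0.03. Without ILF2 shRNA replicate 1 the Sm protein gene SNRPD1 was called lower. Of 9 cap binding and elongation factors 1 rose and 0 fell: the elongation kinase gene CDK9 (0.22, adjusted p = 0.0254), a call that ended without either non-silencing library or ILF2 shRNA replicate 2 (adjusted p 0.112 to 0.345). Without ILF2 shRNA replicate 2 the cap-binding gene NCBP2 was called in its place. Of 17 genes for histone message translation and decay 2 rose and 0 fell, a share of 11.8% where 10.2% of all tested genes rose. CTIF, a translation factor of the cap-binding complex, rose by 0.27 (adjusted p = 0.0089), and the exonuclease gene XRN1 rose by 0.22 (adjusted p = 0.0196). Without non-silencing replicate 2 neither was called (adjusted p = 0.238 and 0.121). When replicate 1 of either group was left out, CTIF was called and XRN1 was not (adjusted p = 0.316 and 0.218). Without ILF2 shRNA replicate 2 CTIF was not called (adjusted p = 0.0636) while XRN1 and TUT7 were, and without ILF2 shRNA replicate 1 LSM5 was called lower. These genes of single settings were chosen for naming after their values were seen. For the lists in which 0 genes rose or fell by edgeR, DESeq2 and limma-voom called 0 in that direction as well. At an unadjusted p under 0.05, 0 rose among histone, S-phase and turnover genes, 1 rose among cleavage factors, and 0 fell among the cap binding and the translation and decay genes.

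**Figure D5:**
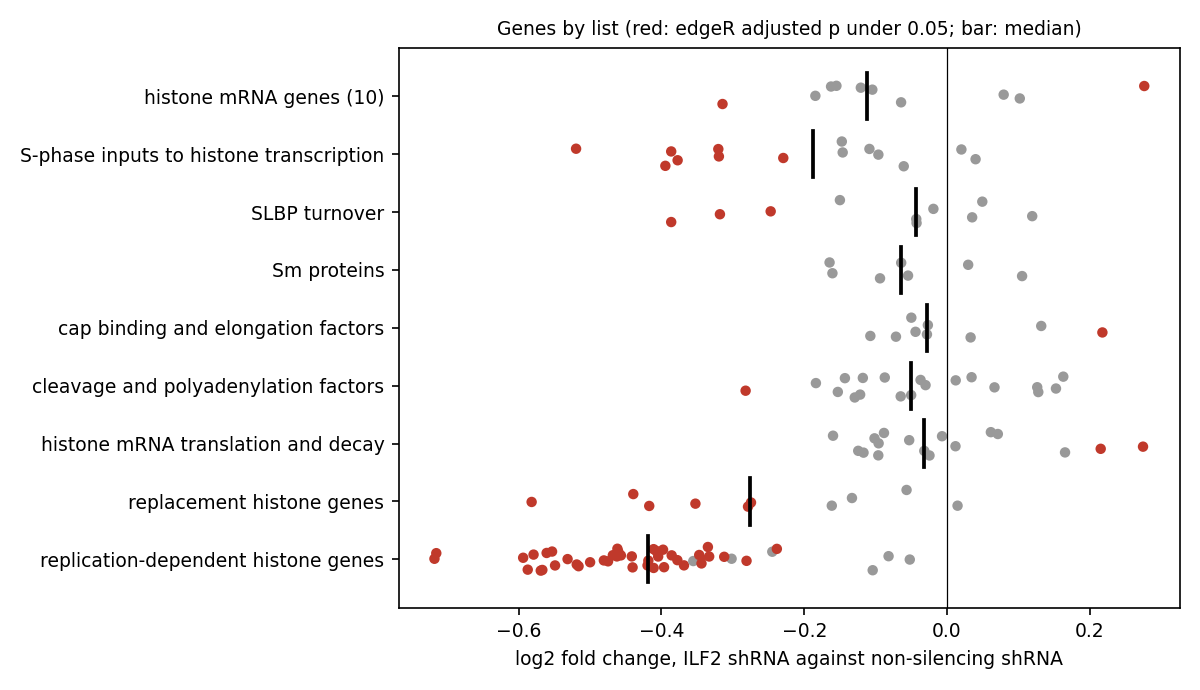
Log2 fold change of each tested gene by list, in red where the edgeR adjusted p was under 0.05, with a bar at each list's median. The 10 histone mRNA genes spread around -0.11, the processing and decay lists lie near 0, and the replication-dependent histone genes centre on -0.42.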

How the data were processed

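Strand-specific libraries of total RNA depleted of ribosomal RNA were sequenced from 4 samples (2 per group, groups and replicate numbers from the sample titles). Each deposited file holds unnormalized fragment counts for 1 library. The authors counted fragments over exons with featureCounts (Subread 1.4.6-p2) and the annotation of Ensembl release 75 of GRCh37 with strand setting 2, per the file headers. STAR 2.3.0 and SAMtools 0.1.19 are listed in the submitters' processing notes, while their design text names another aligner. How fragments with several mapping places were treated is not recorded in the headers. Symbols were matched by Ensembl ID for 55665 of 63677 genes and by position (reciprocal overlap of at least 0.9) for 376.

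Counts were fitted in edgeR 4.0.16 (R 4.3.3) with TMM factors, filterByExpr (minimum count 10), and robust dispersions, and a quasi-likelihood test of the group, which was the single factor. Adjusted p-values are Benjamini-Hochberg over all 19142 tested genes, and 0.05 was the threshold. CPM uses TMM-scaled library sizes. The standard error (SE) is the log2 fold change over the root of F, and intervals use the fit's degrees of freedom. The biological coefficient of variation was 5.38%, and counts of 636 to 13055 for these genes add counting error. The fit was tested on simulated data.

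The 10 genes, the 8 companion lists and the tests were chosen with earlier results of these data known. The named genes are the 10, ILF2, ATM, CPSF3, CSTF2, RNU7-1, neighbours starting within 1000 bases on the opposite strand, and up to 4 genes of each list with the smallest adjusted p (the 2 most abundant where none passed). Alternatives were DESeq2 1.42.0, limma-voom (limma 3.58.1), other scaling factors, other filters, mitochondrial and small RNA genes left out, a replicate block, each library left out, and, added after seeing the data, a GC and length correction (mgcv 1.9.3). Protein sequences were not used here.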

Additional observations from a re-analysis of the deposited data

How the results depend on the processing

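The table was fitted under 13 alternative settings, 9 of them with all 4 libraries. NPAT, HINFP and LSM11 stayed on the same side of the threshold and kept their direction in all 13. With a library left out their log2 fold changes ran from -0.17 to -0.038, from 0.039 to 0.16 and from 0.0011 to 0.16, and that of CPSF2 from -0.19 to -0.046. SLBP, ZNF473, CPSF2 and ERI1 differed in the GC and length correction alone, where they passed (log2 fold changes -0.18, -0.20, -0.12 and -0.16). With libraries left out in turn the log2 fold change of CASP8AP2 ran from -0.46 to -0.18, that of LSM10 from 0.17 to 0.39 and that of SYMPK from -0.15 to 0.023, where its direction turned without non-silencing replicate 1. NDUFB1 ran from -0.019, without ILF2 shRNA replicate 1, to 0.139. Whether equal replicate numbers pair libraries across the groups was not established. Differences between replicates correlated at -0.025 across genes between the groups. With the replicate block LSM10 lost its call (0.28, adjusted p = 0.0640) and 0 of the 10 genes, 0 cap binding factors and 0 translation and decay genes were called higher, with 1291 of all genes called higher and 1297 lower. The GC and length correction called 3018 genes higher and 2833 lower. It called 5 of the 10 genes, 2 Sm proteins, 1 cap binding factor, 6 cleavage factors and 2 translation and decay genes lower. In the other direction it called 1 of the 10 genes, 2 cap binding factors, 2 cleavage factors and 3 translation and decay genes higher. With a library left out, all genes called lower numbered 1070 to 1822 and higher 1029 to 1899. The 10 genes called lower and called higher each numbered 0 to 1, Sm proteins lower 0 to 1, cap binding factors higher 0 to 1, cleavage factors lower 0 to 2 and higher 0 to 1, and translation and decay genes lower 0 to 1 and higher 0 to 2. These fits have fewer samples, and the spread of an arm with 1 library is assumed to be that of the other. The cause of the other changes was not tested. ZNF473, with the fewest fragments, has the widest interval of the set.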

Other observations

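Genes with the commonest histone stem-loop (30 tested) had a median of -0.47 on the log2 scale, the 7 tested genes that share the stem-loop of H2BC12 one of -0.40, and the 7 with the commonest H4 form one of -0.35. These are descriptions of genes that share sequence and clusters, and the difference was not tested.

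MACROH2A1, the replacement histone gene with the smallest adjusted p, fell by 0.58 on the log2 scale and lies on chromosome 5, where 267 of 900 tested genes were higher, 30 were lower and the median was 0.15. Its log2 fold change ran from -0.60 to -0.56 with libraries left out. Of all tested genes 10.2% were higher and 10.1% lower by edgeR, and other chromosomes were not tallied.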
